A study of Mus musculus with 4 samples.

Results

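Endothelial and pericyte markers are genes used to recognise the cells of small blood vessels. The 8 genes described here are Tek, Cdh5, Emcn, Pecam1 and Kdr for endothelium and Rgs5, Pdgfrb and Cspg4 for pericytes. They were looked up among the probe sets that the platform annotation maps to exactly 1 of these symbols. That gave 11 of the 45141 probe sets of the array and 7 of the 17097 genes measured, and Cspg4, a proteoglycan of pericytes, was not analysed here because no probe set carried its symbol. Where a gene had several probe sets, the brightest by its mean over the 4 arrays stands for it. The arrays held RNA of mouse mammary gland cells taken 3 days after transplantation, in a study of how collagen signals and stiffness bear on multipotency. The BC alone group received 10000 BC cells, which the labels call multipotent, and the control group received 8000 LC cells mixed with 2000 BC cells, which they call unipotent. Each group had 2 arrays, each made from RNA of 50 sorted cells. The labels spell out neither BC nor LC, commonly short for basal and luminal cells, and give no strain, genotype, age or sex for the mice. They also do not say which surface markers gated the sort or whether cells of the host could pass it, and nothing says that the arrays came from separate animals, so the p-values reflect the spread among these 4 arrays, which may be technical.

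Endothelial cells line blood vessels and are held together by VE-cadherin, the product of Cdh5, and by CD31, the product of Pecam1. They grow and stay alive through 2 receptor tyrosine kinases, Kdr (VEGFR2), which binds VEGF, and Tek (TIE2), which binds angiopoietins. Pericytes wrap around capillaries, are recruited through Pdgfrb by PDGF-B from the endothelium, and carry Rgs5, a brake on G protein signalling. In the mammary gland this network lies in the stroma around the ducts, outside the epithelium. Pecam1 is also found on platelets and leukocytes, and Pdgfrb also on fibroblasts.

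The markers did not differ as 1 block. Rgs5, Tek, Cdh5 and Emcn were higher on both BC alone arrays than on either control array, with log2 differences of 1.32 to 3.00. Pecam1, Kdr and Pdgfrb had overlapping groups and differences between -0.11 and 0.22. Among the 7 genes, 4 were thus at least 2-fold higher in BC alone without overlap, where 4.79% of all genes were, and without regard to size the same 4 were higher without overlap, where 16.8% of all genes were. None of the 7 passed an adjusted p of 0.05 in limma, and 0% of all genes did. When the arrays were quantile normalised again, 3 of the 7 met both conditions, Cdh5 falling short at 0.92. In that setting 334 of the 17097 genes were at least 2-fold higher in BC alone without overlap, against 819 at the chosen setting. In either direction such genes numbered 614, against 972 at the chosen setting. At an unadjusted p under 0.05, 4 of the 7 were higher in BC alone, against 3.08% of all genes. Of the 7, 6 had a higher mean in BC alone, where 46.7% of all genes did, and their median difference was 1.32 log2, against -0.04 over all genes.

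**Figure D1:**
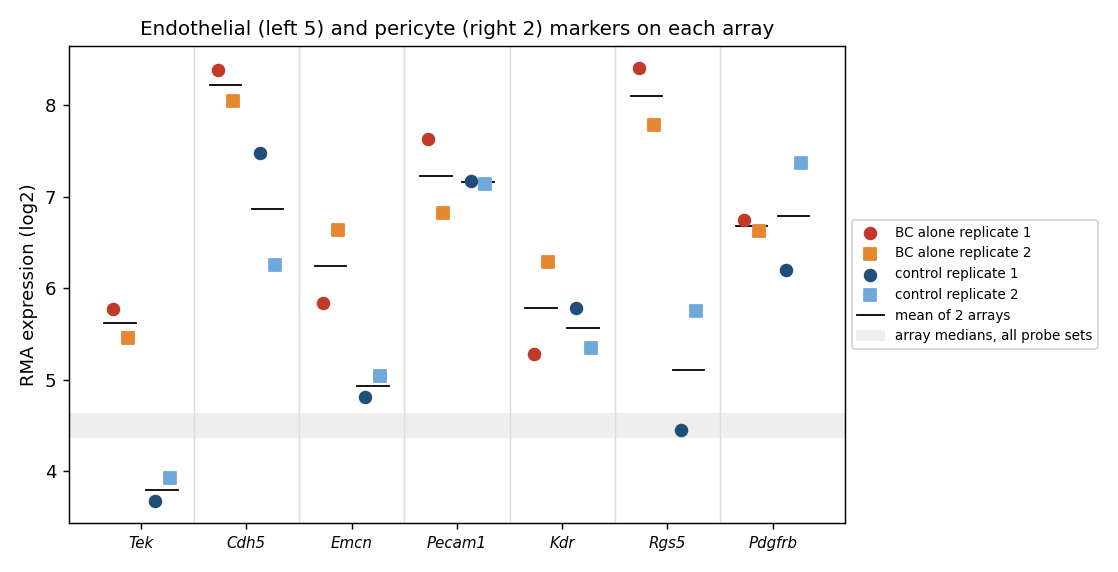
RMA expression (log2) of the 7 measured markers on each of the 4 arrays, BC alone to the left of the control within each gene, with black bars for the mean of 2 arrays and a grey band for the medians of the arrays. The groups are apart for Tek, Cdh5, Emcn and Rgs5 and overlap for Pecam1, Kdr and Pdgfrb.

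The regions before the gene starts are shown for Rgs5, Tek and Emcn, whose groups were apart, and for Kdr, whose groups overlapped. They come from RefSeq on build GRCm38.p6, while no build is named for the array, and 5 of the 8 genes matched that table. Each runs from 250 bases before to 50 bases after the gene start. Capitals mark GGAA, the core bound by ETS factors such as ERG and FLI1, and AGATAA, bound by GATA factors, on either strand, so that TTCC and TTATCT are capitals too. The Rgs5 region is chr1:169655251-169655550 on the plus strand, that of Tek chr4:94739039-94739338 on the plus strand, that of Emcn chr3:137340828-137341127 on the plus strand and that of Kdr chr5:75978406-75978705 on the minus strand.
Rgs5: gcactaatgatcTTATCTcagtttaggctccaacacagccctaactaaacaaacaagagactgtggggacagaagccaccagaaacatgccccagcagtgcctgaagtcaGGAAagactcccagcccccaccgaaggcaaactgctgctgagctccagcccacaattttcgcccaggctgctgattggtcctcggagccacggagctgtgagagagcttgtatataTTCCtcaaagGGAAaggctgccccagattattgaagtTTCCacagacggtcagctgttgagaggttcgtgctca
Tek: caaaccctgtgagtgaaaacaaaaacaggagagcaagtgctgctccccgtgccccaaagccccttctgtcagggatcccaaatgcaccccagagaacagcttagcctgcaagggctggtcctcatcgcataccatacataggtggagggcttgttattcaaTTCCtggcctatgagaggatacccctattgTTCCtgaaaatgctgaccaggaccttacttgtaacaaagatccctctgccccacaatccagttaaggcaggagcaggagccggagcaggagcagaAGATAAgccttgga
Emcn: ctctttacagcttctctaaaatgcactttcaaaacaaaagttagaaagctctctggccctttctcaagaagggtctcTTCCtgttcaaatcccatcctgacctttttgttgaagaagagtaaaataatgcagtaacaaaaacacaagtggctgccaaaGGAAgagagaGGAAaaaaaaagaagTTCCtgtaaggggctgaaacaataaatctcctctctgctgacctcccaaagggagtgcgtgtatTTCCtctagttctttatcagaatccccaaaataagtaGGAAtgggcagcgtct
Kdr: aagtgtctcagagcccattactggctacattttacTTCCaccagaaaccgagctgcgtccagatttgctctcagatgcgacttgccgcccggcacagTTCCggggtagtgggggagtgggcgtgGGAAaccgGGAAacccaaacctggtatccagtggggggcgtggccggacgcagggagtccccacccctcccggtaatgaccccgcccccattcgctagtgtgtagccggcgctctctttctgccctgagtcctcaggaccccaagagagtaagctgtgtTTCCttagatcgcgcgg

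GGAA was found 4 times for Rgs5, 2 times for Tek, 6 times for Emcn and 5 times for Kdr. Of 32851 such windows in the table, 96% hold it at least once, with a median of 3. AGATAA was found once each in the Rgs5 and Tek windows, 238 bases before the Rgs5 start and at base 37 from the Tek start, and 11.2% of all windows hold it. The longer site AGGAAG, which contains GGAA, was found 2 times in the Emcn window, at 174 and 93 bases before the start, and in 35.4% of all windows. These matches describe the letters of the windows only.

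Rgs5 had the largest difference of the 7. Its log2 value was 8.41 and 7.78 on the BC alone arrays and 4.45 and 5.75 on the control arrays. Both BC alone arrays lay at least 2 log2 units above the higher control. The mean was 8.10 ± 0.45 in BC alone and 5.10 ± 0.92 in the control (n = 2, SD), a difference of 3.00 ± 0.52 (SE), or 7.97-fold, with an adjusted p of 0.842 in limma. Within its array the probe set ranked at percentile 93.3 and 89.8 of all probe sets in BC alone and at percentile 51.5 and 74.7 in the control. On control replicate 1 it therefore stood near the middle of the array, where probe sets cannot be told from background without detection calls.

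All 4 probe sets of Rgs5 were higher in BC alone without overlap. The probe set 1417466_PM_at had 8.34 and 6.98 on the BC alone arrays against 4.67 and 6.08 in the control, a difference of 2.29. The probe set 1420940_PM_x_at had 7.81 and 7.19 in BC alone and 4.83 and 5.33 in the control, a difference of 2.42, and its name marks probes that can also bind other transcripts. The fourth, 1420942_PM_s_at, was dim on every array, with 4.44 and 4.19 in BC alone and 3.08 and 3.72 in the control. On all 4 probe sets BC alone replicate 1 was above BC alone replicate 2 and control replicate 2 above control replicate 1. They share the RNA of the same arrays, so they are not independent samples, and 3 of them carry the consecutive numbers 1420940, 1420941 and 1420942.

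**Figure D2:**
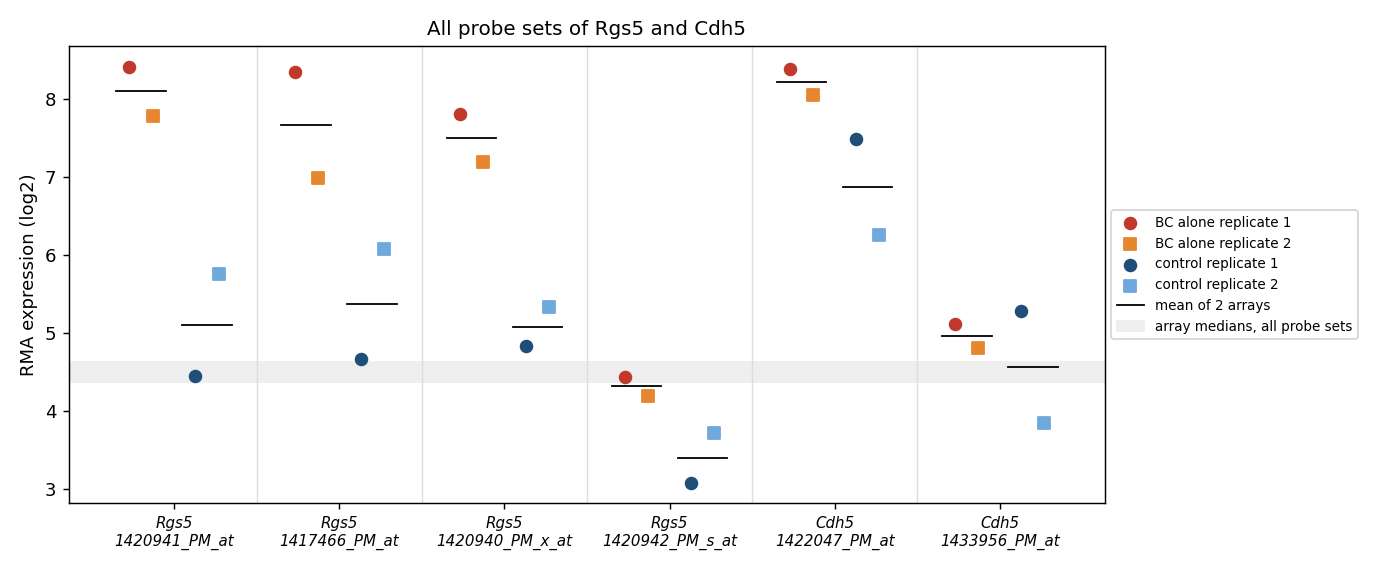
RMA expression (log2) of each probe set of Rgs5 and Cdh5 on each array, BC alone to the left of the control, with black bars for the mean of 2 arrays and a grey band for the array medians. Groups are apart on all 4 Rgs5 probe sets and on the brighter Cdh5 probe set, and overlap on the dimmer Cdh5 probe set.

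Tek was the endothelial marker with the largest difference, and its replicates lay closer together than its groups. It had 5.77 and 5.46 on the BC alone arrays and 3.67 and 3.92 on the control arrays. Replicates differed by 0.31 in BC alone and by 0.25 in the control, and the nearest arrays of the 2 groups lay further apart than that. The mean was 5.62 ± 0.22 in BC alone and 3.80 ± 0.18 in the control (n = 2, SD), a difference of 1.82 ± 0.32 (SE), or 3.53-fold, with a 95% interval from 1.03 to 2.61 and an adjusted p of 0.842 in limma. It ranked at percentile 71.7 and 67.7 in BC alone and at percentile 32.5 and 30.4 in the control, below the median of the array, so the fold may be too small if the control values are background. The difference was 1.95 against control replicate 1 alone and 1.70 against control replicate 2 alone, so it did not rest on either control array.

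Cdh5, which codes for VE-cadherin of endothelial junctions, had 8.38 and 8.05 in BC alone and 7.48 and 6.25 in the control. The groups did not overlap, but control replicate 1 was close to BC alone replicate 2. The mean was 8.22 ± 0.23 for BC alone and 6.87 ± 0.87 for the control (n = 2, SD), a difference of 1.35 ± 0.48 (SE), or 2.55-fold, with an adjusted p of 0.842 in limma. Against control replicate 1 alone the difference was 0.74, and against control replicate 2 alone it was 1.97. Its dimmer probe set, 1433956_PM_at, had 5.11 and 4.80 in BC alone and 5.28 and 3.85 in the control. There the groups overlapped, control replicate 1 was the highest of the 4 arrays, and the difference was 0.39.

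Emcn, the gene of the sialomucin endomucin on capillary and venous endothelium, had 5.84 and 6.64 in BC alone and 4.81 and 5.04 in the control. Here BC alone replicate 2 was the higher one, unlike for Rgs5, Tek and Cdh5. The mean was 6.24 ± 0.57 for BC alone and 4.93 ± 0.16 for the control (n = 2, SD), a difference of 1.32 ± 0.38 (SE), or 2.49-fold, with an adjusted p of 0.842 in limma. The difference was 1.43 against control replicate 1 alone and 1.20 against control replicate 2 alone.

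Pecam1, the gene of CD31, had 7.63 and 6.82 in BC alone and 7.17 and 7.14 in the control. The control arrays lay between the BC alone arrays. The difference was 0.07 ± 0.38 (SE) with a 95% interval from -0.88 to 1.02, and it turned to -0.47 when the arrays were quantile normalised again and to -0.42 under cyclic loess. The interval holds both 0 and a 2-fold difference, and the adjusted p was 0.949 in limma. Kdr, the main VEGF receptor of endothelium, had 5.28 and 6.28 in BC alone and 5.78 and 5.35 in the control. Its BC alone arrays were the lowest and the highest of the 4. The difference was 0.22 ± 0.44 (SE), with an interval from -0.88 to 1.31 and an adjusted p of 0.876 in limma, and it was 0.00 against control replicate 1 alone.

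Pdgfrb, the pericyte receptor for PDGF-B, had 6.74 and 6.62 in BC alone and 6.20 and 7.37 in the control. The BC alone arrays lay between the control arrays. The mean was 6.68 ± 0.08 for BC alone and 6.79 ± 0.83 for the control (n = 2, SD) and the difference was -0.11 ± 0.46 (SE), with an interval from -1.25 to 1.04 and an adjusted p of 0.936 in limma. It was 0.48 against control replicate 1 alone and -0.69 against control replicate 2 alone, and 0.02 after median centring. The gene ranked at percentile 81.7 and 80.6 of the BC alone arrays, at percentile 76.8 of control replicate 1 and at percentile 94.2 of control replicate 2. Both Pdgfrb and Rgs5 were higher on control replicate 2 than on control replicate 1. Whether the difference of Rgs5 exceeds that of Pdgfrb was not tested, since they are read by different probes.

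**Figure D3:**
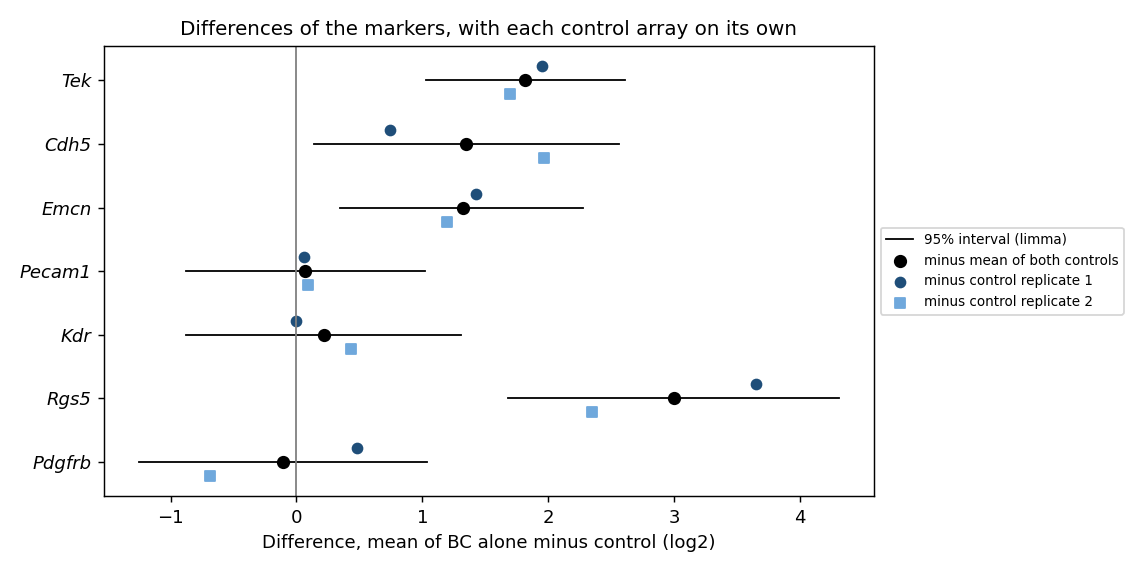
Difference of the 7 markers between the mean of BC alone and the control on the log2 scale, with 95% intervals from limma around the difference from both controls (black), and the difference from control replicate 1 (dark blue circles) and from control replicate 2 (light blue squares) on their own. Tek, Cdh5, Emcn and Rgs5 lie above 0 against either control array, Pecam1 lies at 0.06 and 0.09 but below 0 under renewed quantile normalization and under cyclic loess, and Pdgfrb changes sign between the 2 control arrays.

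Control replicate 2 stood apart from the other arrays. Its values had an SD of 1.44 over all probe sets against 1.90 to 1.92 on the others, and it correlated with them at a Pearson r of 0.915 to 0.919 across probe sets, which are not independent. Basal markers, which define the BC cells if that name means basal, were far lower on it, with Krt5 at 10.47 and 10.22 in BC alone and at 10.76 and 7.12 on control replicates 1 and 2. The median of the 7 basal markers was 8.74 and 8.76 in BC alone, and 8.81 and 5.40 on control replicates 1 and 2. Without control replicate 2 the median difference of the 7 vessel markers was 0.74, Rgs5, Tek and Emcn remained at least 2-fold higher without overlap, and Cdh5 did not reach that size. Of the 17097 genes, 375 were at least 2-fold higher without overlap in that setting, against 819 with all 4 arrays. Lack of overlap is an easier condition against 1 control array than against 2.

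The partners of these receptors were divided between the groups. Among the 14 angiopoietin and VEGF partners, 10 had a higher mean in BC alone and 4 a lower one, and 3 were higher and 3 lower without overlap, with 16.8% and 19.6% of all genes so placed. None passed in limma, and the median difference was 0.17. Ptprb, the endothelial phosphatase that acts on Tek, had 6.86 and 6.16 on the BC alone arrays against 4.88 and 5.52 in the control, a difference of 1.31 ± 0.41 (SE). Angpt1, the activating ligand of Tek, was lower in BC alone, with 4.50 and 4.42 there and 5.31 and 5.42 in the control, a difference of -0.91 ± 0.29 (SE). Tek and Angpt1 therefore differed in opposite directions, each with groups apart. Angpt1 ranked at percentile 52.3 and 51.2 in BC alone, near the middle of the array, and Tek lay below the median in the control. Angpt2, which can block Tek, had 3.70 and 3.58 in BC alone and 4.39 and 3.94 in the control. By percentile its groups overlapped, at 33.8 and 30.5 in BC alone and 50.2 and 31 in the control. Angpt4, a further ligand, differed by 0.18 in the same direction as Tek. It was higher without overlap, with 4.37 and 4.39 in BC alone and 4.14 and 4.27 in the control. Tie1, the co-receptor of Tek, had 5.44 and 5.71 in BC alone and 4.70 and 6.08 in the control, where the control arrays enclosed the others.

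Vegfa, the main ligand of Kdr, had 9.27 and 9.04 in BC alone and 8.72 and 7.21 in the control. The groups were apart with a difference of 1.19 ± 0.54 (SE), which was 0.44 against control replicate 1 alone. Flt4, the receptor of lymphatic endothelium, was lower in BC alone without overlap, with 4.54 and 4.34 there and 5.03 and 4.62 in the control. By percentile within the array its groups overlapped, at 53.1 and 49.6 in BC alone and 61.9 and 50.2 in the control. Groups overlapped for Flt1, a VEGF receptor that differed by 0.16, for the co-receptors Nrp1 and Nrp2 at 0.67 and 0.18, and for the ligands Vegfb, Vegfc, Vegfd and Pgf at 0.24, 0.04, 0.10 and -0.07. The sign of Tie1, Vegfb, Flt1, Nrp2 and Pgf turned under at least 1 of 3 other scalings.

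For the PDGF pathway 4 of 5 partners of Pdgfrb were measured, and Pdgfa was not. All 4 had a higher mean in BC alone, where 46.7% of all genes did. Pdgfd, a ligand of Pdgfrb, had 4.39 and 3.90 in BC alone and 2.60 and 3.06 in the control. Its groups were apart by a mean of 1.32 ± 0.36 (SE), although the control values lie low on the array. Pdgfb, which codes for the ligand PDGF-B made by endothelium, had 6.90 and 5.84 in BC alone and 5.46 and 6.16 in the control, which overlapped. Pdgfc differed by 0.78, and by -0.12 against control replicate 1 alone, and Pdgfra, the related receptor of fibroblasts, by 0.19. None of the 4 passed in limma, and their median difference was 0.67.

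A wider set of vessel genes was read the same way. Of 26 other endothelial markers, 17 had a higher mean in BC alone and 9 a lower one, where 46.7% of all genes were higher. Without overlap 8 were higher and 3 lower, where 16.8% and 19.6% of all genes were, and 3 of the 8 were at least 2-fold higher, where 4.79% of all genes were. The median difference was 0.27, with 0.21 to 0.39 under 3 other scalings, and 0.18 without control replicate 2, where 15 were higher. The 4 with the smallest p were Cd34, S1pr1, Gpihbp1 and Plvap. Cd34, a surface sialomucin that fibroblasts and progenitors also carry, had 6.72 and 7.44 on the BC alone arrays against 4.68 and 4.19 in the control, a difference of 2.65 ± 0.39 (SE). S1pr1, the receptor for sphingosine 1-phosphate on endothelium, had 6.26 and 5.53 in BC alone and 4.03 and 5.09 in the control. Gpihbp1, which holds lipoprotein lipase on capillaries, differed by 1.05, and Plvap, the diaphragm protein of fenestrated endothelium, by 0.73, both without overlap. The 3 lower without overlap were Sox7, Aplnr and Esm1, at -0.61, -0.56 and -0.28. By percentile within the array the groups of Sox7 overlapped, at 45.6 and 54 in BC alone and 66.3 and 50.2 in the control. Erg and Fli1 had overlapping groups and differed by -0.25 and -0.15. Only 11 of the 26 lay above the array median on all 4 arrays, and 4 lay below it on all 4.

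Of 17 other pericyte markers, 12 had a higher mean in BC alone and 5 a lower one, and 8 were higher and 2 lower without overlap, beside 16.8% and 19.6% of all genes. The median difference was 0.76, with 0.57 to 0.89 under 3 other scalings. Without control replicate 2 it was 0.57, with 11 higher. Gucy1a1, a subunit of the nitric oxide receptor guanylate cyclase, had 7.15 and 6.76 in BC alone and 4.91 and 4.76 in the control, a difference of 2.12 ± 0.32 (SE). Notch3, the Notch receptor of mural cells, had 9.20 and 8.08 in BC alone and 7.06 and 6.94 in the control, a difference of 1.64 ± 0.45 (SE). Both were nearly as far apart against control replicate 1 alone, at 2.05 and 1.58. The Notch3 difference was 1.01 after another quantile normalization, 1.04 under cyclic loess and 1.77 after median centring. Mcam, the adhesion molecule CD146 of mural and endothelial cells, differed by 1.16 and Ndufa4l2, a mitochondrial protein, by 1.19, and groups were apart for both. Rasl12 and Higd1b, the 2 lower without overlap, differed by -0.55 and -0.44. By percentile within the array the groups of Rasl12 overlapped, at 40.6 and 46.6 in BC alone and 60.7 and 41.7 in the control. Only 6 of the 17 lay above the array median on all 4 arrays, and 5 lay below it on all 4. Neither the endothelial nor the pericyte list had a gene past the adjusted threshold in limma.

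**Figure D4:**
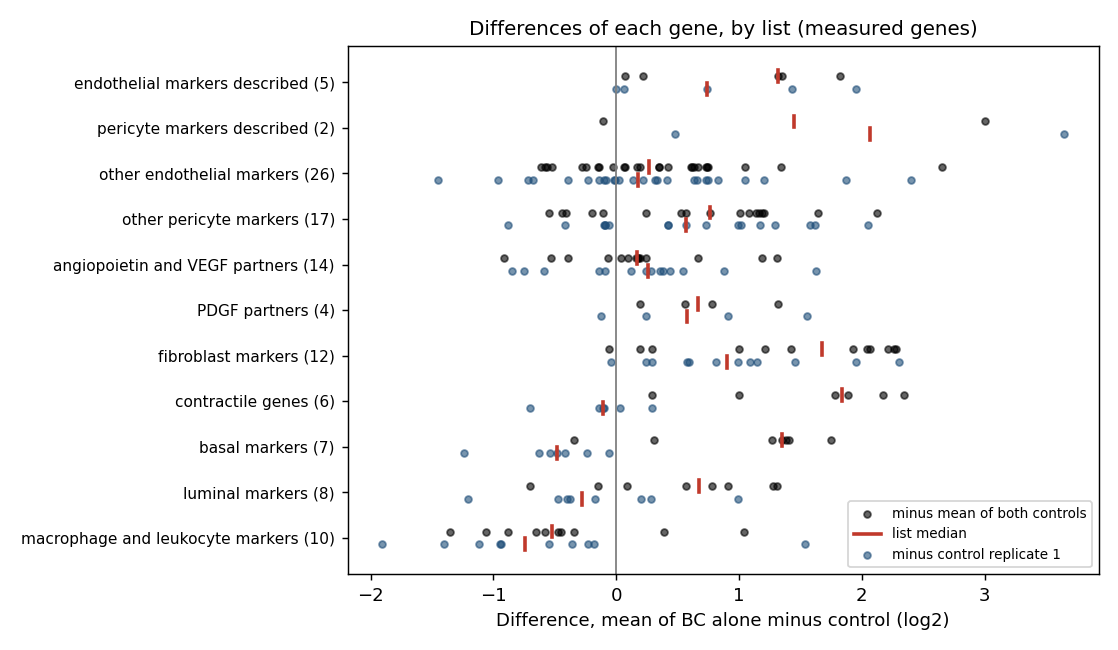
Difference of each measured gene between the mean of BC alone and the control on the log2 scale, by list, against both controls (black) and against control replicate 1 alone (blue), with red bars for list medians and the number of genes in brackets. Medians of the contractile, basal and luminal lists lie above 0 against both controls and below 0 against control replicate 1, while those of the vessel and fibroblast lists lie above 0 in both.

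Markers of other cells differed between the same groups, and their part in the vessel genes was not tested. In a bulk sample fewer cells of a type and less RNA per cell cannot be told apart. Of 12 fibroblast markers, 11 had a higher mean in BC alone and 8 were higher without overlap, beside 46.7% and 16.8% of all genes. Their median level was 6.88 and 7.24 in BC alone and 5.76 and 4.53 in the control. The 4 with the smallest p, Thy1, Fap, Mfap5 and Lum, differed by 2.07 to 2.28. Without control replicate 2 the median difference of this list was 0.90, and it was 1.67 with all arrays. The 6 measured contractile genes, shared by smooth muscle and myoepithelium, had a median level of 9.87 and 9.54 in BC alone and 9.77 and 5.52 in the control, so that only control replicate 2 was low. Myh11, Myl9, Acta2 and Mylk had the smallest p there and differed by 0.29, -0.11, -0.10 and -0.14 against control replicate 1 alone.

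Basal and luminal markers had median differences of 1.35 and 0.67 over all arrays and of -0.48 and -0.27 without control replicate 2. The basal genes with the smallest p, Trp63, Igfbp5, Krt5 and Krt14, differed by 1.35 to 1.75 over all arrays and by -0.48 to -0.06 against control replicate 1 alone. Of the luminal ones, Gata3 and Krt8 differed by 1.31 and 1.28 without overlap, Krt18 by 0.78 and Cldn3 by -0.70. Against control replicate 1 alone 3 of the 8 luminal genes were higher in BC alone, with Gata3 at 0.99 and Krt8 at 0.20. Rgs5, Tek and Emcn differed by 3.65, 1.95 and 1.43 against that array. Whether they follow the basal or luminal genes was not tested. Of 10 macrophage and leukocyte markers, which can carry Pecam1, 8 had a lower mean in BC alone, where 46.7% of all genes had a higher one. Without overlap 4 were lower and 1 higher, where 19.6% and 16.8% of all genes were. The median level of this list was 5.02 and 5.59 in BC alone and 6.18 and 5.65 in the control. Lyz2 and Cd74 differed by -1.06 and -1.35 without overlap. Cd3e, of T cells, differed by 1.04 the other way, with 4.91 and 4.47 in BC alone and 3.15 and 4.15 in the control. Ptprc, the pan-leukocyte gene, had 2.91 and 3.27 in BC alone and 4.21 and 3.26 in the control. Without detection calls no marker was called absent.

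The genes whose pattern was most like each marker were taken as the 3 with the smallest Euclidean distance between log2 values centred over the 4 arrays. With 4 arrays such likeness is weak, and many genes come close by the number searched. Rgs5 had no gene within a distance of 0.5. Its nearest were Pcolce2 at 0.83, an enhancer of procollagen processing, Cthrc1 at 0.87, a secreted protein of matrix-producing cells, and F2r at 1.00, the thrombin receptor. Tek had 22 genes within 0.5, of which Ccn3 at 0.20, a matricellular protein, Flrt2 at 0.27 and Armcx3 at 0.29 were nearest. Emcn had 64 within 0.5, with Dact1 at 0.07, Dpp4 at 0.15 and Magt1 at 0.20 nearest, and Cdh5 had 318, with Ilk and Btbd7 at 0.13 and Bnip3 at 0.14 nearest. Kdr had 642 genes within that distance, the nearest being Bmyc, Cnot10 and Birc2, and Pdgfrb had 2184, the nearest being Tnnc1, Hoxc9 and Lypd6b.

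The markers also varied within the groups. Replicates of the median gene differed by 0.20 in BC alone and by 0.52 in the control. In BC alone Kdr, Pecam1, Emcn and Rgs5 differed by 1.00, 0.81, 0.80 and 0.63 between replicates, and Cdh5 and Tek by 0.33 and 0.31. All of these lay above the median gene, and only Pdgfrb, at 0.12, lay below it. In the control Rgs5, Cdh5 and Pdgfrb differed by 1.30, 1.23 and 1.17, and Pecam1 by 0.03. The smallest p that an exact two-sided permutation test can give here is 0.333, so no single marker could pass with it.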

How the data were processed

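Expression was measured in 4 mouse mammary samples, 2 per group, grouped by their titles. Each deposited value is the log2 expression of a probe set. Per the submitters' processing notes the authors used RMA and affy, without versions or a build. RMA corrects background, normalises quantiles and summarises probes, and compresses large differences. Whether all arrays were normalised together is not given in the sources used here, and their distributions differ. The platform annotation gave 28898 of 45141 probe sets 1 symbol, 551 several and 15692 none, and 28689 matched the reference gene table by Entrez identifier.

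BC alone was compared with the control in limma 3.58.1 under R 4.3.3 (lmFit and eBayes, two-sided, Benjamini-Hochberg over all 17097 genes, threshold 0.05, no filter, block or trend), with 2 residual and 3.50 prior degrees of freedom. The fit was tested on simulated data. Folds were computed from differences of log2 values. Named genes are the 8 markers, all receptor partners, up to 4 of each other list with the smallest p and the 3 genes nearest to each marker that spans at least 1 log2 unit. Added to these were Reln, Erg, Fli1 and the other endothelial and pericyte markers lower without overlap. The markers and lists were chosen with earlier results of these data known, and no list was tested as a set. Alternatives were other scalings, probe sets, filters, arrays, blocks and variance models. The number of arrays limits the precision.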

Additional observations from a re-analysis of the deposited data

How the results depend on the processing

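No marker passed an adjusted p of 0.05 in limma at the chosen settings. Rgs5, Tek, Cdh5 and Emcn kept a higher mean in BC alone under every alternative that gave a value. Leaving aside single dimmer probe sets, the differences ran from 2.15 to 3.65, 1.67 to 1.98, 0.74 to 1.97 and 0.92 to 1.72, and the lowest on a dimmer probe set was 0.92 for Rgs5 and 0.39 for Cdh5. Tek had no value among genes above the median level, since its mean lay below it. With an intensity trend in the variance 97 genes passed, among them Rgs5 (adjusted p = 0.000454) and Tek (adjusted p = 0.00573), with 831 prior degrees of freedom estimated. With the replicate number as a block 108 genes passed, 94 of them higher, among them Rgs5 (adjusted p = 3.14e-05). That fit had 1 residual degree of freedom and estimated infinite prior ones. Every gene thus shared 1 variance, with an SE of 0.51 for each marker, and the p-values hold no spread of the single gene. Same-numbered arrays did not deviate together (r = -0.0184 over genes), so the numbers are not taken as pairs. The median difference of the markers, 1.32, was 0.92 after another quantile normalization, 1.44 after median centring, 0.80 after cyclic loess, 0.87 with the mean of probe sets, 0.77 among genes above the median level, and 0.74 to 1.20 without 1 array. Over all genes the median difference shifted by 0.125 with median centring. Pecam1 turned to -0.47 and -0.42 under quantile normalization and cyclic loess, and Pdgfrb to 0.02 under median centring. Without 1 array Pecam1 ran from -0.34 to 0.48, Kdr from -0.29 to 0.72 and Pdgfrb from -0.69 to 0.48. The genes at least 2-fold different without overlap numbered 972, of which 84.3% were higher. They numbered 614 (54.4% higher) and 533 (56.5% higher) under quantile normalization and cyclic loess, 1243 (92% higher) under median centring, 620 with the mean of probe sets and 732 to 3824 without 1 array, the highest without control replicate 1 and 1502 without BC alone replicate 2. The cause of these shifts was not tested. The list values without control replicate 2 were added after the data had been seen.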

Other observations

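Blood and fat markers gave the following values. Of 3 measured erythroid markers all had a lower mean in BC alone, where 46.7% of all genes had a higher one. Klf1, an erythroid transcription factor, had 3.80 and 3.69 in BC alone and 5.16 and 5.09 in the control, and Alas2, the first enzyme of haem synthesis in red cells, had 5.10 and 5.02 in BC alone and 6.57 and 6.21 in the control. Hba-a1, an alpha globin, had 11.09 and 8.31 in BC alone and 11.59 and 10.64 in the control, so that BC alone replicate 2 was the low one. The 5 platelet markers, which share vessels and Pecam1 with endothelium, had a median difference of -0.18, with Pf4, platelet factor 4, at 4.76 and 4.46 in BC alone and 5.34 and 4.98 in the control. Itga2b, an integrin of platelets, was higher in BC alone without overlap, at 6.45 and 6.53 there and 6.20 and 5.74 in the control. Without control replicate 2 the platelet median turned to 0.15, with 4 of 5 higher. The 5 lymphatic markers had a median difference of -0.34. Lyve1 and Prox1, markers of lymphatic endothelium, were lower in BC alone without overlap, Lyve1 with 4.27 and 4.21 there and 4.63 and 5.14 in the control, and Prox1 with 3.91 and 3.81 there and 4.05 and 4.89 in the control. Pdpn and Reln had a higher mean in BC alone with overlapping groups, and differed by 1.57 and 0.42 over all arrays, but by -0.23 and -1.31 against control replicate 1 alone, and Mmrn1 differed by -0.34. Of 4 adipocyte markers Fabp4, a fatty acid binding protein that capillary endothelium also expresses, had 9.03 and 9.00 in BC alone and 8.11 and 8.27 in the control. The Fabp4 difference of 0.83 fell to 0.07 after another quantile normalization and to 0.12 under cyclic loess, and was 0.95 after median centring. Adipoq, Pck1 and Lep lay below the array median on every array. None of these genes passed in limma.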
